A study of Mus musculus with 6 samples.

Results

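Pyroptosis is an inflammatory form of cell death in which a gasdermin pore opens the plasma membrane. The 10 genes described here encode its main parts in the mouse, and were taken by symbol from the deposited count table. They are the sensors Nlrp3, Aim2 and Nlrc4, the adapter Pycard, the caspases Casp1 and Casp4, the gasdermins Gsdmd and Gsdme, the NLRP3-binding kinase Nek7 and the membrane-rupture gene Ninj1. These were 10 of 56748 genes listed, and all 10 were among the 17146 genes that passed a filter on low counts and were tested.

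RNA was sequenced from primary osteocytes isolated from mouse long bones after the marrow had been flushed out and the bone digested with trypsin, collagenase and EDTA. There were 3 libraries from C57BL/6J mice (WT) and 3 from mice labelled Gsdmd fl/fl; DMP1-Cre (cKO), and the isolation procedure is described for animals 7 weeks old. All 6 cultures had received lipopolysaccharide (LPS) at 10 ng/mL for 3 h and then aluminum hydroxide at 20 µg/mL for 3 h, a priming signal followed by an inflammasome trigger. Each value below is therefore a level under stimulation, and unstimulated libraries were not analysed here. In the cKO mice Cre is driven by the promoter of Dmp1, a gene of osteocytes and late osteoblasts, so cells in the culture that never used this promoter would keep the floxed alleles. The labels do not say whether the 3 libraries of a genotype came from separate animals, so the p-values measure only the spread between these libraries, which may be technical.

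In the canonical pathway a sensor binds its trigger and recruits the adapter ASC, the product of Pycard, which gathers pro-caspase-1 into an active complex. Caspase-1 matures IL-1β and IL-18 and cuts gasdermin D, whereas mouse caspase-11, the product of Casp4, binds cytosolic LPS directly and cuts gasdermin D without a sensor complex. Macrophages and other myeloid cells are the textbook setting of this machinery, and the comparison below asks which of its genes moved with macrophage markers and which were expressed at like levels in both genotypes.

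Library totals ranged from 39566835 to 49734046 counts. Among markers of other cells, all 19 tested macrophage markers of 20 listed rose in the libraries labelled cKO, by 2.20 (Lyz2) to 4.25 (Fcgr1) on the log2 scale apart from Aif1, which had 6, 4 and 1 counts in WT and 60, 100 and 69 in cKO. Aif1 reached the limit of the filter on low counts in all cKO libraries but not in all WT libraries, so its call was partly set by the filter. The other 18 all rose, against 20.1% of all genes tested at an adjusted p below 0.05. The summed level of the macrophage markers was 1294 to 1449 CPM (counts scaled to a library of 1000000) in WT and 7401 to 7748 CPM in cKO, and Cx3cr1, the marker not tested, held at most 11 counts. Summed neutrophil markers reached 4.95 to 8.10 CPM in WT and 12.9 to 14.8 CPM in cKO, with S100a9, Ly6g, Mpo, Ngp and Cxcr2 at 3 counts or fewer in every library. The 3 that were tested, S100a8, Camp and Csf3r, rose, S100a8 and Csf3r at least 2-fold, though Csf3r passed the filter through cKO alone. Lymphocyte markers summed to at most 1.25 CPM. Osteoclast markers summed to 143 to 152 CPM in WT and 151 to 181 CPM in cKO, with 2 of 6 tested higher and 2 lower. In the lists of connective tissue and vessel cells single markers moved in opposite directions. Of 6 fibroblast markers 3 rose, Lum by 1.49 on the log2 scale, and 3 fell, with Postn at -3.12, while their sum, carried by Col3a1, was 10002 to 10562 CPM in WT and 10377 to 11100 CPM in cKO. Of 5 tested osteoblast markers 2 rose, Ibsp by 2.01, and 3 fell, and Col1a1, at -0.67, carried a sum of 5570 to 6207 CPM in WT and 3609 to 3890 CPM in cKO. Among chondrocyte markers, which summed to 1957 to 2169 and 2920 to 3108 CPM, Comp rose by 1.90, Col2a1 had a log2 fold change of -0.84, and Acan had at most 8 counts in WT and at least 782 in cKO. The endothelial markers summed to 6.41 to 6.84 CPM in WT and 6.32 to 6.71 CPM in cKO, but Kdr rose by 2.04 while Pecam1, Cdh5, Tek and Emcn fell (the latter 3 having passed the filter through WT alone), Emcn from 56, 59 and 35 counts to 0, 0 and 2. Of the osteocyte markers, Sost had 0 counts in all 6 libraries, Mepe at most 2 and Dmp1 at most 6. Fgf23 had 14, 34 and 8 counts in WT and 6, 0 and 0 in cKO, Phex had 2 to 22 counts over the 6 libraries, and Pdpn, which other cells also express, averaged 233.8 CPM in WT and 193.0 CPM in cKO. Sost, Mepe and Dmp1 were thus at or near 0 under both labels, and the part of any of these marker differences in the results below was not tested. Counts of the Y-linked gene Ddx3y were 4785, 5455 and 4033 in WT and 0 in each cKO library, and Xist had at most 4 counts in WT and at least 44817 in cKO, so genotype and sex cannot be told apart.

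Gsdmd, which encodes the gasdermin that caspase-1 and caspase-11 cut to form the pore, is the gene the Cre was meant to delete. It had 609, 699 and 549 counts in WT and 885, 937 and 1045 in the libraries labelled cKO, which is 13.5, 14.1 and 14.1 CPM against 21.0, 23.6 and 23.0 CPM. All 3 libraries labelled cKO lay above all WT libraries, in the direction opposite to the label. Gsdmd rose from 13.9 ± 0.339 to 22.5 ± 1.33 CPM (mean ± SD, n = 3), a log2 fold change of 0.69 (SE 0.0827, 95% confidence interval 0.52 to 0.87) with an adjusted p of 2.27e-06 in the edgeR quasi-likelihood test with Benjamini-Hochberg adjustment. The gene (chr15:75734176-75739257, + strand, GRCm39, as are all coordinates here) was counted over all its exons, so the floxed exons were not measured apart from the rest. The cKO group is named here by its label, and every direction below is that of the libraries labelled cKO against WT.

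By the edgeR test at an adjusted p below 0.05, 7 of the 10 genes rose (Nlrc4, Aim2, Casp1, Nlrp3, Pycard, Gsdmd and Ninj1), 0 fell and 3 did not pass (Gsdme, Nek7 and Casp4). Nlrc4 reached the limit of the filter on low counts in all 3 cKO libraries, where it is high, but not in all 3 WT libraries, so its call was partly set by the filter, and of the other 9 genes 6 rose. Over all genes tested, 20.1% rose and 19.2% fell at the same threshold, or 39.3% in either direction. A change of at least 2-fold was seen in 5 of the 10 (Nlrc4, Aim2, Casp1, Nlrp3 and Pycard), all upward, or 4 of 9 without Nlrc4, against 6.56% of all genes upward and 4.64% downward. The median log2 fold change was 1.29 over the 10 genes, 0.69 without Nlrc4 and 0.0077 over all genes tested. Libraries of the genotypes did not overlap for 9 of the 10 genes, 8 of them higher in cKO and Casp4 lower, against 25.3% of all genes higher, 23.9% lower and 49.2% in either direction. Nlrc4 was among these 8, and its direction was partly set by the filter. In bulk RNA, fewer cells of a type and less RNA per cell cannot be told apart, and this holds for each difference given here.

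**Figure D1:**
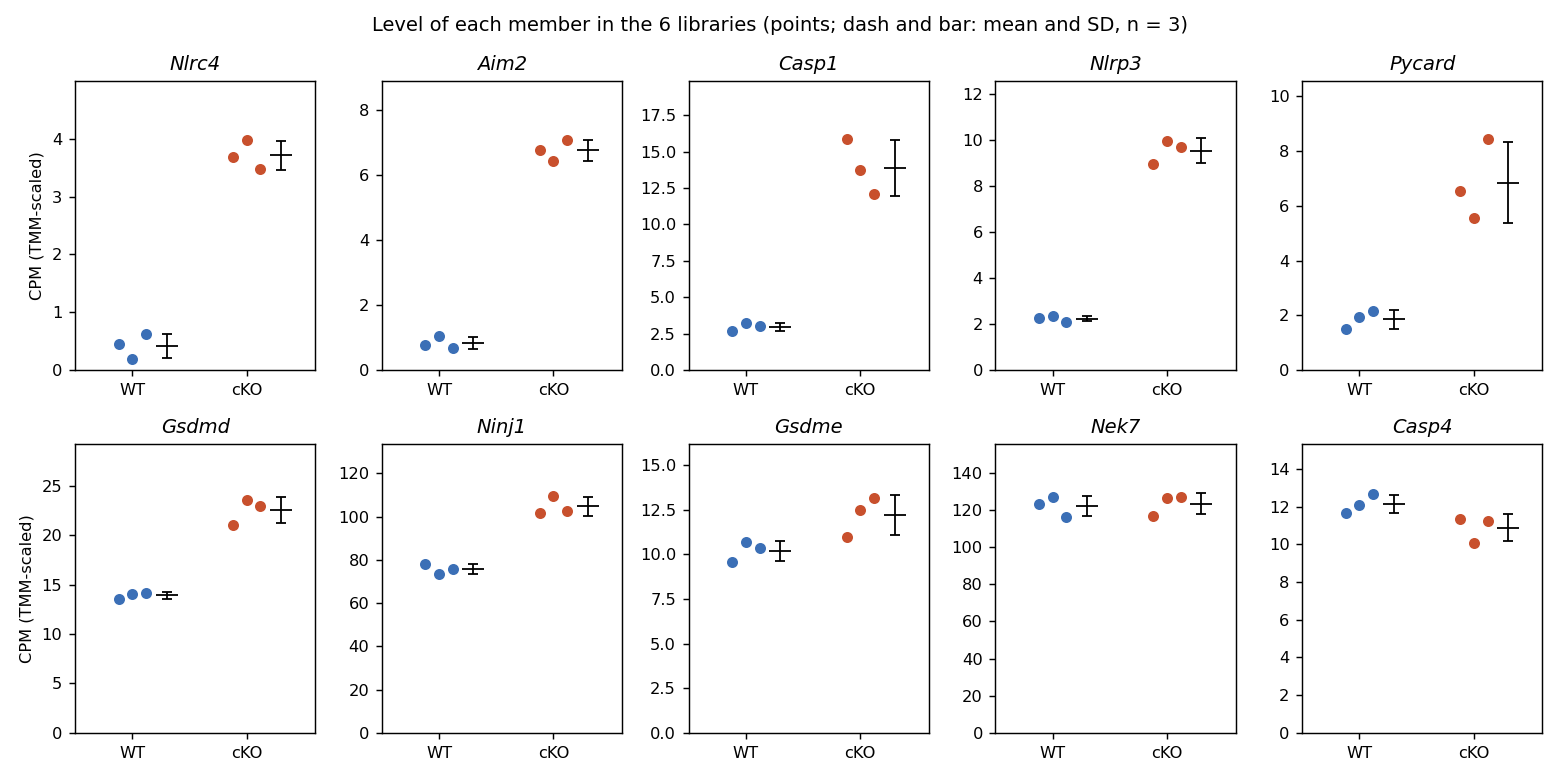
CPM of each of the 10 genes in the 6 libraries, with 1 panel per gene, a vertical axis that starts at 0 in each panel, blue points for WT and orange points for cKO, and a dash and bar for the mean and SD of 3 libraries. The cKO points of Nlrc4, Aim2, Casp1, Nlrp3 and Pycard stand far above the WT points, those of Gsdmd and Ninj1 stand clear of them by less, and those of Nek7 overlap them.

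All 3 sensors rose, though the call of Nlrc4 was partly set by the filter, as given above. Nlrc4 and Aim2 had the lowest WT levels per length and the highest fold changes of the 10 genes. Nlrp3 (chr11:59432394-59457782, + strand) encodes the sensor that responds to potassium efflux, crystals and aluminum salts. It measured 2.24, 2.36 and 2.11 CPM in WT, from 101, 117 and 82 counts, and 8.94, 9.96 and 9.69 CPM in cKO, from 376, 396 and 440 counts. The cKO libraries lay close together and far above every WT library. Nlrp3 rose from 2.24 ± 0.123 to 9.53 ± 0.530 CPM (mean ± SD, n = 3), a log2 fold change of 2.09 (SE 0.148, 95% interval 1.77 to 2.40, edgeR adjusted p = 2.62e-09).

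Aim2 (chr1:173178445-173293606, + strand) encodes the sensor of double-stranded DNA in the cytosol. Its level was 0.778, 1.05 and 0.670 CPM in WT, from 35, 52 and 26 counts, and 6.77, 6.41 and 7.07 CPM in cKO, from 285, 255 and 321 counts. The lowest cKO library held more than any WT library by a wide margin. Aim2 rose by 3.00 on the log2 scale (SE 0.21, 95% interval 2.56 to 3.45, edgeR adjusted p = 2.18e-09), from 0.832 ± 0.195 to 6.75 ± 0.327 CPM (mean ± SD, n = 3).

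Nlrc4 (chr17:74732433-74766137, - strand) encodes the sensor that works with NAIP proteins to detect bacterial flagellin and secretion systems. Only 20, 10 and 24 counts fell on it in the WT libraries, against 155, 158 and 158 in cKO, or 0.444, 0.202 and 0.618 CPM against 3.68, 3.97 and 3.48 CPM. WT libraries spread widely around so few counts, and the cKO libraries were nearly equal. The log2 fold change of Nlrc4 was 3.16 (SE 0.326, 95% interval 2.47 to 3.85, edgeR adjusted p = 3.85e-07), from 0.421 ± 0.209 to 3.71 ± 0.249 CPM (mean ± SD, n = 3), with the widest interval of the 10. In the GENCODE M39 annotation 17.9% of its exon bases are shared with Slc30a6 on the opposite strand, a gene with up to 901 counts, and the strand setting of the counting is not given in the sources used here.

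Nek7 (chr1:138410613-138547879, - strand), a mitotic kinase that also binds NLRP3 and is needed for its assembly, did not pass the test. Its 6 libraries held 4517 to 6310 counts, which is 123.1, 127.2 and 116.4 CPM in WT and 116.8, 126.4 and 126.8 CPM in cKO. The genotypes overlapped. The means were 122.2 ± 5.44 and 123.3 ± 5.70 CPM (mean ± SD, n = 3), and the log2 fold change of 0.013 had a 95% interval of -0.09 to 0.12 (SE 0.0495, edgeR adjusted p = 0.868).

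Pycard (chr7:127588880-127593039, - strand) encodes ASC, which links NLRP3 and AIM2 to caspase-1. It measured 1.49, 1.93 and 2.16 CPM in WT, from 67, 96 and 84 counts, and 6.54, 5.56 and 8.45 CPM in cKO, from 275, 221 and 384 counts. Every cKO library was above every WT library, and the cKO libraries differed among themselves more than those of Nlrp3. Pycard rose from 1.86 ± 0.344 to 6.85 ± 1.47 CPM (mean ± SD, n = 3), a log2 fold change of 1.88 (SE 0.205, 95% interval 1.45 to 2.31, edgeR adjusted p = 7.36e-07).

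The inflammatory caspases Casp1 (chr9:5298508-5307290, + strand) and Casp4 (chr9:5308828-5336783, + strand) are neighbours, with 1537 bases between them on chromosome 9. Casp1 encodes caspase-1, the protease of the canonical inflammasome, and had 121, 160 and 118 counts in WT and 668, 545 and 548 in cKO. Its level was 2.69, 3.22 and 3.04 CPM in WT and 15.9, 13.7 and 12.1 CPM in cKO, with no overlap between genotypes. Casp1 rose from 2.98 ± 0.272 to 13.9 ± 1.91 CPM (mean ± SD, n = 3), a log2 fold change of 2.22 (SE 0.141, 95% interval 1.92 to 2.51, edgeR adjusted p = 6e-10).

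Casp4, which encodes the LPS-binding caspase-11, had 526, 601 and 491 counts in WT and 477, 401 and 511 in cKO. Its level was 11.7, 12.1 and 12.6 CPM in WT and 11.3, 10.1 and 11.2 CPM in cKO. Each cKO library was below each WT library, by little. The log2 fold change of -0.16 did not pass the edgeR test (SE 0.101, 95% interval -0.37 to 0.06, adjusted p = 0.248), with means of 12.1 ± 0.483 and 10.9 ± 0.699 CPM (mean ± SD, n = 3). The longest run of bases that any annotated transcripts of Casp1 and Casp4 share was 14, shorter than a read.

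The 250 bases before the start of each gene's canonical transcript were read from GRCm39 with the GENCODE M39 annotation, to show what lies before genes that rose and genes that did not. The letters searched on both strands were GAGGAA, a core of the box bound by PU.1, the myeloid factor encoded by the macrophage marker Spi1, and an NF-κB core of GGG and TTTCC with any 2 bases between them. An interferon-response core of GAAA and GAAA with any 2 bases between them, and the TATA box TATAAA, were searched in the same windows. Shown are the caspase neighbours, Nlrp3, which held the most matches, and Ninj1, which rose less and had the most CpG dinucleotides, printed 5′ to 3′ on the gene's strand, with motif matches in capitals.
Casp1, chr9:5298258-5298507, + strand: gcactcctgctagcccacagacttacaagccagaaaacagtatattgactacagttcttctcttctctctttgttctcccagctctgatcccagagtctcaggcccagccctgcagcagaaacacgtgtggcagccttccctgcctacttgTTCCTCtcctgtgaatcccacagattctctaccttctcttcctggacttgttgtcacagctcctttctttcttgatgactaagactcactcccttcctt
Casp4, chr9:5308593-5308842, + strand: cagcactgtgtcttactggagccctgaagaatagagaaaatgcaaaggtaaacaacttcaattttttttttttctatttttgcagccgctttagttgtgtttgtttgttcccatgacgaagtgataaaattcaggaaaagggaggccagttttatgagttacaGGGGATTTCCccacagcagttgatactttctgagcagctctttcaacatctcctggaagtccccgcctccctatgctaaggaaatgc
Nlrp3, chr11:59433262-59433511, + strand: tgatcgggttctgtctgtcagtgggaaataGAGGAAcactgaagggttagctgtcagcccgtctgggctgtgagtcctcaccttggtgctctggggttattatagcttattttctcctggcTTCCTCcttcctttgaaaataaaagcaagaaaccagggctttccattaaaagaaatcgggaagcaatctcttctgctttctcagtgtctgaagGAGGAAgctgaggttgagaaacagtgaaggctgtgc
Ninj1, chr13:49340695-49340944, + strand: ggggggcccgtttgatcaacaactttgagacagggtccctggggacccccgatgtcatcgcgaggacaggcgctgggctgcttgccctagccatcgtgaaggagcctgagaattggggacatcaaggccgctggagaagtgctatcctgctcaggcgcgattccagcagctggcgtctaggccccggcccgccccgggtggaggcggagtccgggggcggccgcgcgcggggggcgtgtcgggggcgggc
GAGGAA, or its other strand TTCCTC, was found in 4 of the 10 windows and in 22.9% of the 21770 windows of protein-coding genes. Casp1 held it 99 bases before the start, Pycard 42 and Gsdme 187 bases before, and Nlrp3 held it 3 times, 220, 129 and 36 bases before the start. The NF-κB core was found in Casp4 alone among the 10, 87 bases before its start, and in 1.47% of all windows. The interferon-response core (3.32% of all windows) and the TATA box (11.9%) were in 0 of the 10. Some windows lie in part within exons of other transcripts of the same gene, with 250 bases for Aim2, 150 for Gsdme, 125 for Nek7, 19 for Gsdmd and 15 for Casp4, so they are not promoters alone. The windows of the 5 genes that rose at least 2-fold held 1 (Casp1, Nlrc4), 2 (Pycard), 3 (Nlrp3) and 4 (Aim2) CpG dinucleotides, that of Casp4 held 3, and those of Gsdmd, Gsdme, Nek7 and Ninj1 held 6, 9, 15 and 23, against a median of 8 over all windows (quartiles 3 and 16). A match is a run of letters, and binding was not measured.

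Gsdme, the other gasdermin gene that could be tested, encodes a protein that caspase-3 cuts. Its level was 9.60, 10.7 and 10.4 CPM in WT, from 432, 530 and 402 counts, and 11.0, 12.5 and 13.2 CPM in cKO, from 463, 496 and 598 counts. The libraries did not overlap, yet the lowest cKO and the highest WT library were close. Means were 10.2 ± 0.556 and 12.2 ± 1.10 CPM (mean ± SD, n = 3), and the log2 fold change of 0.26 did not pass the edgeR test (SE 0.107, 95% interval 0.03 to 0.48, adjusted p = 0.0669). With scaling by library size alone (adjusted p = 0.0473), or without cKO replicate 1 (log2 fold change 0.33, adjusted p = 0.0440), it passed. The gene (chr6:50165868-50240842, - strand) shares 24.0% of its exon bases with Pals2 on the opposite strand, a gene with up to 2001 counts. None of the 8 other gasdermin genes, Gsdma to Gsdmc4 and Pjvk, passed the filter on low counts, and none exceeded 12 counts in a library.

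Ninj1 (chr13:49340961-49349720, + strand) encodes ninjurin-1, which ruptures the plasma membrane after the gasdermin pore has formed. It was well covered, with 3505, 3645 and 2938 counts in WT and 4286, 4358 and 4665 in cKO, or 77.9, 73.5 and 75.7 CPM against 101.9, 109.6 and 102.7 CPM. The genotypes did not overlap, and libraries of 1 genotype differed little. Ninj1 rose from 75.7 ± 2.21 to 104.7 ± 4.25 CPM (mean ± SD, n = 3), a log2 fold change of 0.47 (SE 0.0489, 95% interval 0.37 to 0.57, edgeR adjusted p = 4.4e-07).

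**Figure D2:**
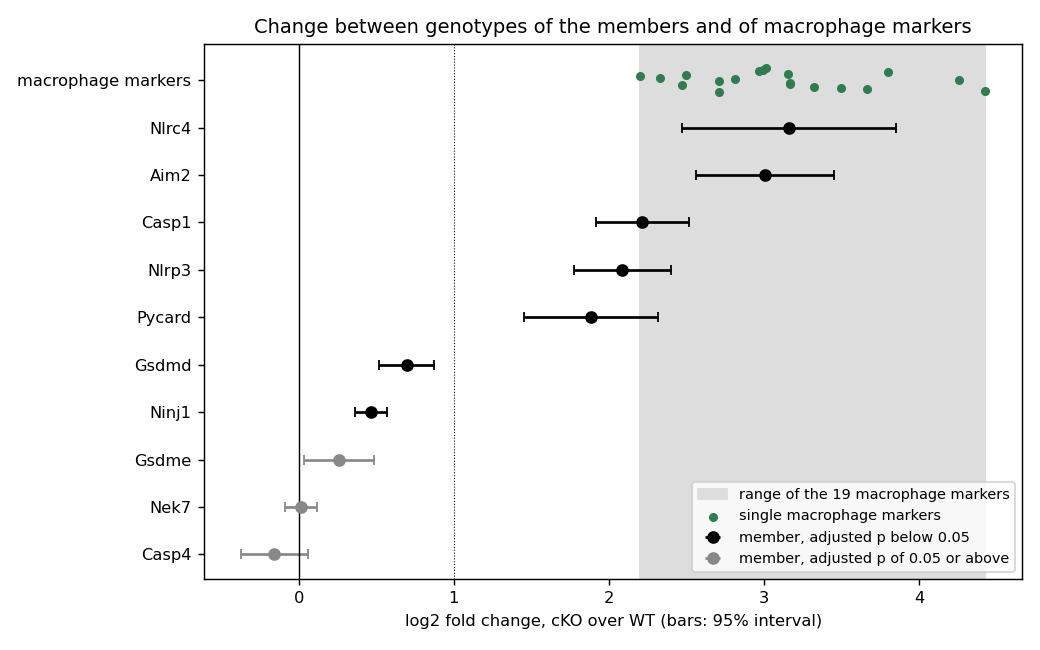
Log2 fold change of each gene, cKO over WT, on the horizontal axis, with bars for the 95% interval, black for an adjusted p below 0.05 and grey otherwise, green points for the 19 macrophage markers and a grey band for their range of 2.20 to 4.42, whose upper end is Aif1 with at most 6 counts in WT. Nlrc4, Aim2 and Casp1 lie in the band, Nlrp3 and Pycard just below it, and Gsdmd, Ninj1, Gsdme, Nek7 and Casp4 between -0.16 and 0.69. The lower end of the band is Lyz2, and Casp1 lies at that edge, with 18 of the 19 markers changing more.

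The levels of the 10 genes were next set against the macrophage markers within each library. The mean level of the 19 tested markers was 68.1, 74.0 and 76.3 CPM in WT and 389.5, 406.3 and 407.8 CPM in cKO. A gene that kept its proportion to them would be the same percentage of that mean under both labels. The log2 ratios, with 0.1 CPM added to each gene, were compared by a two-sided exact permutation test over the 6 libraries, for which 0.1 is the smallest p that 3 against 3 libraries allow, so no comparison of this kind could pass 0.05. The part of macrophage content in any of the differences was not tested.

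Casp1 was 3.95%, 4.36% and 3.99% of the macrophage mean in WT and 4.08%, 3.37% and 2.96% in cKO, with overlapping libraries (log2 difference -0.29, exact p = 0.2, adjusted over the 10 genes 0.2). Nlrp3 was 3.29%, 3.19% and 2.77% in WT and 2.29%, 2.45% and 2.38% in cKO, a log2 difference of -0.42 with no overlap (exact p = 0.1, adjusted p = 0.125). Both differences were smaller in size than those of Nek7 and Casp4 given below, which only restate that Nek7 and Casp4 changed little. Aim2 was 1.14%, 1.42% and 0.878% in WT and 1.74%, 1.58% and 1.73% in cKO (log2 difference 0.43, exact p = 0.1, adjusted p = 0.125). Nlrc4 was 0.652%, 0.272% and 0.811% in WT and 0.946%, 0.978% and 0.853% in cKO (log2 difference 0.49, exact p = 0.2, adjusted p = 0.2), and its percentages did not overlap while the log2 ratios with 0.1 CPM added did. Its difference was 0.13 without WT replicate 2 and 0.73 without WT replicate 3, that of Aim2 was 0.27 without WT replicate 3, and that of Casp1 was -0.18 without cKO replicate 3. Pycard was 2.18%, 2.62% and 2.84% in WT and 1.68%, 1.37% and 2.07% in cKO (log2 difference -0.65, exact p = 0.1, adjusted p = 0.125). The reference moved these values: against the mean of the markers' log2 levels, in which Lyz2, the marker with the highest CPM, weighs less, the log2 differences were -0.87 for Casp1, -1.01 for Nlrp3, -1.23 for Pycard, -0.15 for Aim2 and -0.09 for Nlrc4. Lyz2 averaged 986 of a summed 1383 CPM of the marker list in WT and 4518 of 7623 CPM in cKO. Against Csf1r alone the log2 differences were -0.99 for Casp1, -1.12 for Nlrp3, -1.35 for Pycard, -0.27 for Aim2 and -0.21 for Nlrc4. Under both of these other references Casp1 had an exact permutation p of 0.1, so its libraries no longer overlapped. The 2 sensors Aim2 and Nlrc4 thus changed direction with the reference, and Casp1, Nlrp3 and Pycard had a lower mean ratio in cKO under each.

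The other 5 genes were a far smaller percentage of the macrophage mean in every cKO library than in every WT library. Because that mean itself rose, a gene that changed little had to be a smaller percentage of it. The values for these genes therefore restate their fold changes given above, and their separation and p-values are no further evidence. Casp4 was 17.2%, 16.4% and 16.6% of the macrophage mean in WT and 2.91%, 2.48% and 2.76% in cKO, a log2 difference of -2.62 (exact p = 0.1, adjusted p = 0.125). Nek7 was 180.7%, 171.9% and 152.6% in WT and 30.0%, 31.1% and 31.1% in cKO, a log2 difference of -2.45 at the same p. Neither pair of groups came near to overlapping. The log2 differences were -2.21 for Gsdme, -2.00 for Ninj1 and -1.77 for Gsdmd, each at the smallest p the design allows. Gsdmd itself was 19.9%, 19.0% and 18.5% of the mean in WT and 5.40%, 5.80% and 5.64% in cKO.

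The log2 fold changes were also set beside those of single markers. A wide interval overlaps more markers than a narrow one, and Nlrc4 and Aim2 had the widest, so the numbers of overlaps do not rank the genes by closeness to the markers. The 95% interval of Nlrc4 overlapped the intervals of 16 of the 19 macrophage markers, that of Aim2 overlapped 14, those of Casp1 and Nlrp3 overlapped 4 each and that of Pycard overlapped 2. The intervals of Gsdmd, Ninj1, Gsdme, Nek7 and Casp4 overlapped 0 of the 19. Of the 3 markers with the highest mean CPM over the 6 libraries, the lysozyme gene Lyz2 rose by 2.20 on the log2 scale, the cathepsin gene Ctss by 3.16 and Cd68 by 2.47.

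**Figure D3:**
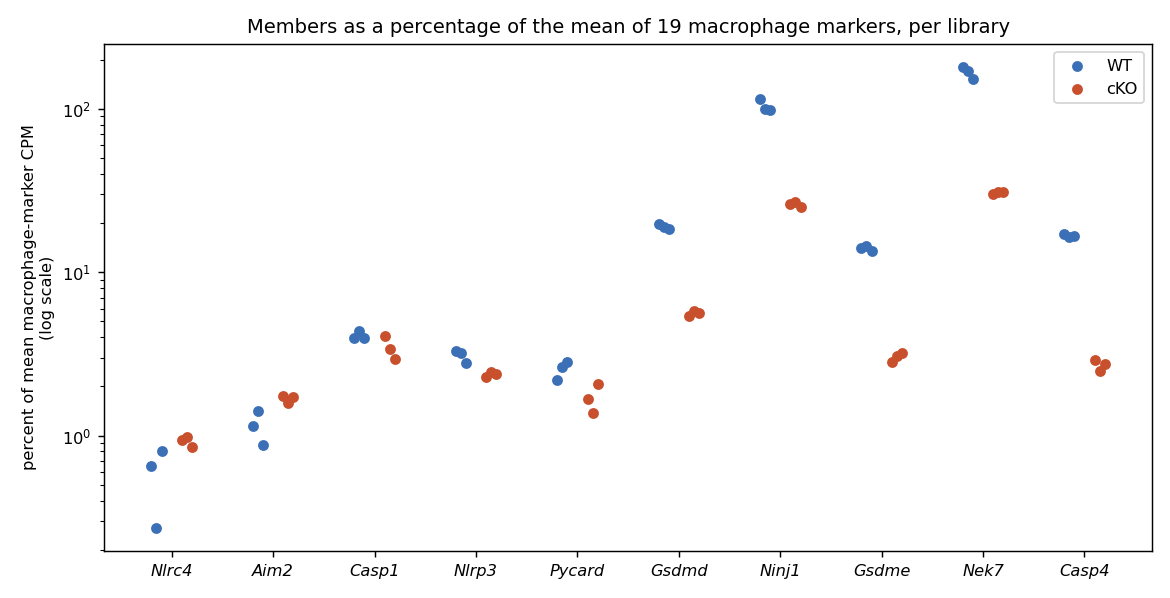
Each gene's CPM as a percentage of the mean CPM of the 19 macrophage markers, per library, on a log axis, with blue points for WT and orange for cKO. Points of Casp1 overlap, those of Nlrc4, Aim2, Nlrp3 and Pycard lie near each other, and those of Gsdmd, Ninj1, Gsdme, Nek7 and Casp4 are far lower in cKO, as for Casp4 at 16.4% to 17.2% in WT and 2.48% to 2.91% in cKO.

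Levels of different genes were compared per length, as CPM per kilobase of the deposited gene length. The exons in GENCODE M39 cover more bases than that length for some genes, 6574 against 3501 for Aim2 and 2666 against 1570 for Ninj1. For Casp1 and Nlrp3 they are equal. The order of near neighbours may therefore depend on the lengths used, and other lengths were not tried. In WT the order was Ninj1 (48.2 ± 1.41), Nek7 (16.6 ± 0.738), Gsdmd (5.86 ± 0.143), Casp4 (3.27 ± 0.130), Casp1 (0.952 ± 0.0868), Gsdme (0.801 ± 0.0436), Nlrp3 (0.552 ± 0.0302), Pycard (0.490 ± 0.0904), Aim2 (0.238 ± 0.0556) and Nlrc4 (0.0877 ± 0.0436 CPM per kilobase, mean ± SD, n = 3). Neighbours in that order did not overlap, except Nlrp3 and Pycard. The membrane-rupture gene, the kinase, the pore gene and caspase-11 were thus the most abundant parts in WT, above the sensors and the adapter. In cKO, Ninj1 (66.7 ± 2.70), Nek7 (16.7 ± 0.773) and Gsdmd (9.48 ± 0.560) kept the first places, and Casp1 (4.43 ± 0.610) stood above Casp4 (2.94 ± 0.188 CPM per kilobase). Nlrp3 (2.35 ± 0.131), Aim2 (1.93 ± 0.0935), Pycard (1.80 ± 0.388), Gsdme (0.959 ± 0.0866) and Nlrc4 (0.772 ± 0.0518) followed, with overlap between Aim2 and Pycard.

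**Figure D4:**
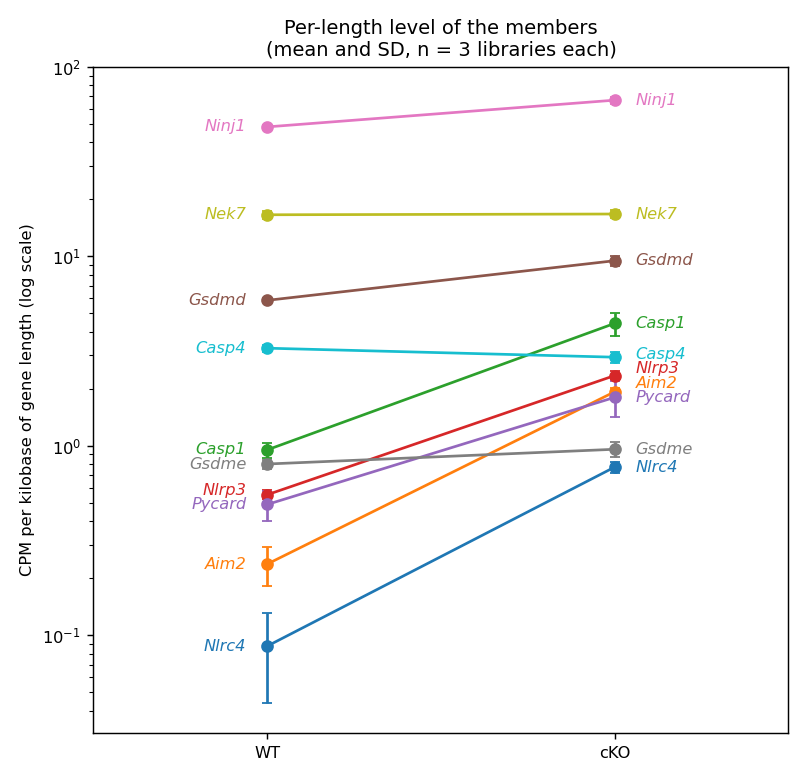
CPM per kilobase on a log axis for each gene in WT and in cKO, with points for means, bars for the SD of 3 libraries and a line joining the genotypes. The line of Casp4 falls slightly, those of Ninj1, Nek7, Gsdmd and Gsdme are flat or climb little, and those of Casp1, Nlrp3, Pycard, Aim2 and Nlrc4 climb steeply, that of Casp1 from 0.952 to 4.43 across that of Casp4.

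Ratios between partners were compared within each library. Each difference in a ratio restates the fold changes of both genes given above. Its separation and p-value are therefore no further evidence that either gene changed. The per-length ratio of Casp1 to Casp4 was 0.272, 0.315 and 0.284 in WT and 1.66, 1.61 and 1.27 in cKO. Caspase-1 transcripts were thus fewer than those of caspase-11 per length in each WT library and more numerous in each cKO library. The log2 ratio differed by 2.33 (two-sided exact permutation p = 0.1, adjusted over 9 pairs 0.129). At the same p, Nlrp3 differed by 2.03 against Nek7, Casp1 by 1.49 against Gsdmd, Gsdmd by 0.44 against Gsdme and Gsdmd by 0.22 against Ninj1. Against Nlrp3, Aim2 differed by 0.86 and Nlrc4 by 0.91, again at an exact p of 0.1. With 1 CPM added to each gene these differences were 0.39 (exact permutation p = 0.1) and 0.038 (exact permutation p = 0.8). Nlrc4 passed the filter on low counts through cKO alone, so the direction of its difference was partly set by the filter. Without WT replicate 2 the difference of Nlrc4 against Nlrp3 was 0.53. The remaining pairs were those that join sensor, adapter and caspase-1. Nlrp3 over Pycard differed by 0.22 (exact p = 0.5) and Pycard over Casp1 by -0.36 (exact p = 0.3, adjusted p = 0.338), and the genotypes overlapped in both. When 1 library was left out, the former ran from 0.053 (without cKO replicate 2) to 0.37 (without WT replicate 1 or cKO replicate 3) and was 0.073 without WT replicate 3. The latter ran from -0.61 (without cKO replicate 3) to -0.22 (without cKO replicate 2) and was -0.23 without cKO replicate 1. At 3 libraries a genotype, a p of this size does not show that the ratios were equal.

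The protein-coding genes with the most similar profile over the 6 libraries were found by the root-mean-square distance between centred log2 profiles, among 12412 genes with a mean of at least 1 CPM. For Nlrp3 they were Rspo2 (distance 0.0756), a Wnt agonist, Syk (0.0780), a kinase of immune receptors, and Oas1a (0.0787), an interferon-induced gene. For Casp1 they were Cybb (0.115), a subunit of the phagocyte oxidase, Gpnmb (0.116) and Il1rn (0.119), the antagonist of the IL-1 receptor. For Gsdmd they were Scara3 (0.0240), Cdh13 (0.0312) and Dusp7 (0.0325). Within a distance of 0.2 lay 105 genes for Nlrp3, 65 for Casp1 and 1141 for Gsdmd. Each profile holds the same 3 libraries of each genotype, so genes with a like difference between genotypes lie near each other.

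A wider list of 81 genes of the pathway was examined, of which 78 matched a symbol in the table and 67 were tested. By the edgeR test 30 rose, 11 fell and 26 did not pass, 14 rose at least 2-fold and 1 fell at least 2-fold. Of these, 6 genes reached the filter's limit in all 3 libraries of 1 genotype alone (Nlrp1a, Nlrp10, Mefv and Il1b in cKO, Nlrp12 and Naip1 in WT), so the direction of their difference was partly set by the filter. Among the other 61 genes 26 rose, 10 fell and 25 did not pass, and 10 rose at least 2-fold, with 20.1%, 19.2% and 6.56% of all genes as the background for higher, lower and 2-fold higher calls. The median log2 fold change was 0.12 over these 61.

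Among 13 other tested sensors, 8 rose and 2 fell, and among the 8 that reached the filter's limit in each genotype 5 rose and 1 fell. Nlrp1b, which encodes a sensor of pathogen proteases, averaged 0.580 ± 0.208 CPM in WT and 8.60 ± 1.53 CPM in cKO (n = 3), and rose by 3.88 on the log2 scale. Naip5 and Naip6, whose products bind flagellin for NLRC4, rose by 2.42 and 2.54, and Nod2, a sensor of bacterial wall fragments, by 1.46. Nlrp1a had 29, 10 and 9 counts in WT and 124, 91 and 121 in cKO, and Nlrp10 had 6, 7 and 6 counts in WT and 33, 31 and 14 in cKO. The Nlrp1 and Naip genes are families of related copies, so the division of reads among them may be uncertain, and it was not examined. Mefv, which encodes the sensor pyrin, had 1, 0 and 0 counts in WT and 44, 23 and 67 in cKO. Nlrp12 had 12, 21 and 15 counts in WT and 0, 2 and 4 in cKO. The sensor with the highest CPM in WT, not scaled by length, the helicase gene Dhx9, averaged 184.1 CPM in WT and 177.8 CPM in cKO and did not pass (edgeR adjusted p = 0.404).

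Of 5 other caspases, 2 rose, 1 fell and 2 did not pass, and none changed 2-fold. Casp8, the initiator caspase of death receptors, rose from 31.5 ± 2.43 CPM (n = 3) in WT by 0.35 on the log2 scale. Of 6 tested cytokine genes and inhibitors, 5 rose, 4 of them at least 2-fold, Il1b included. Il1b had 8, 0 and 26 counts in WT and 43, 53 and 109 in cKO, with a log2 fold change of 2.55 (edgeR adjusted p = 0.00665). IL-1β is the main cytokine substrate of caspase-1. Il1rn, which encodes the antagonist of its receptor, rose from 67.3 ± 3.62 to 330.3 ± 8.95 CPM (n = 3). The alarmin gene Il33 rose by 1.35 and Il18bp, which encodes a trap for IL-18, by 1.48.

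Of 9 ion channels and triggers, 4 rose and 2 fell. Kcnk6, a potassium channel gene, rose by 2.24 on the log2 scale, and Clic4, the gene of this role with the highest CPM in WT, fell by 0.10 from 595.7 CPM. Of 8 guanylate-binding and LPS-entry genes, 4 rose and 0 fell. Cd14, the LPS co-receptor gene that is itself high in monocytes, rose from 72.7 ± 5.56 to 241.6 ± 3.55 CPM (n = 3), and Gbp5 rose by 1.49. Of 16 regulators of NLRP3 and gasdermins, 4 rose, 3 fell and 9 did not pass, and the one with the highest CPM in WT, the Golgi gene Tgoln1, rose by 0.26. Of 10 membrane repair genes, 3 rose, 3 fell and 4 did not pass, with Anxa2, an annexin gene, falling from 860.6 to 572.3 CPM. The background for the counts of every role is 20.1% of all genes higher and 19.2% lower. The counts of the regulators and the repair genes are not read as a difference from it.

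**Figure D5:**
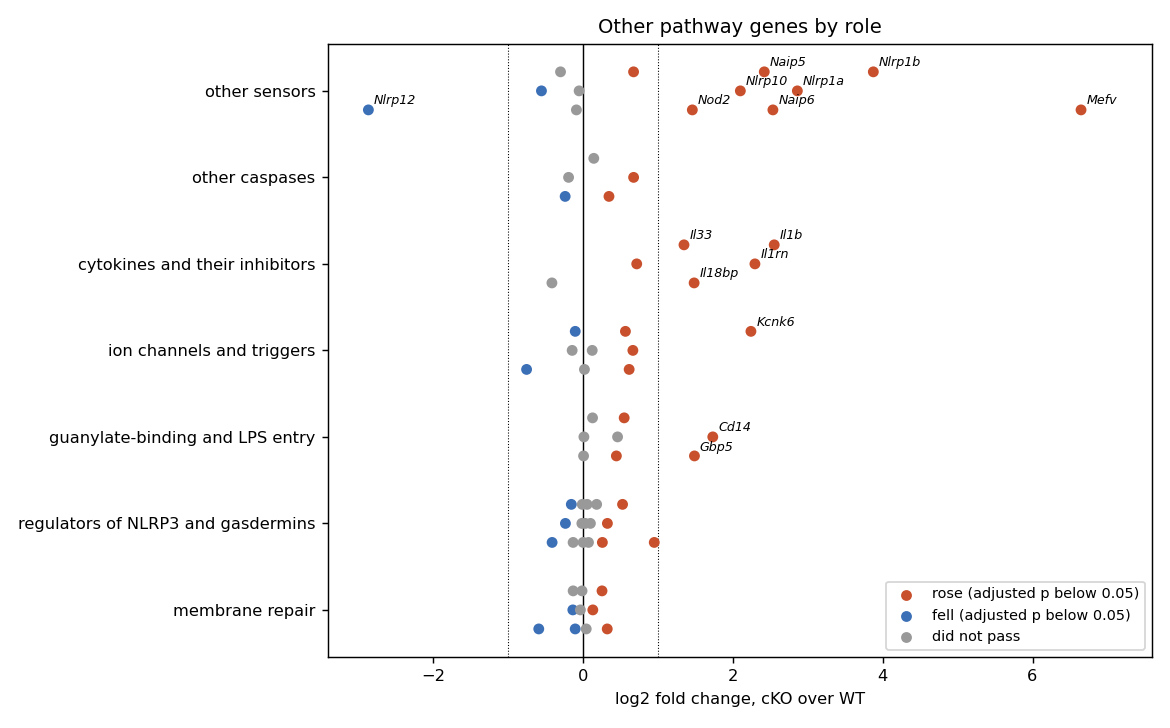
Log2 fold change, cKO over WT, of the 67 tested genes of the wider list, in rows by role, with orange for genes that rose, blue for genes that fell and grey for the rest, and with dotted lines at 2-fold. Nlrp1a, Nlrp10, Mefv, Il1b and Nlrp12 reached the filter's limit in 1 genotype alone, and the place of Mefv at the right edge is a fitted value that rests on 1 count in WT and is no measure of size. Among genes that reached the limit in each genotype, Nlrp1b (3.88) lies furthest to the right. Il1rn (2.30) is the furthest of such cytokine genes and Kcnk6 (2.24) of the channels. The caspases, regulators and repair genes stay within the dotted lines.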

How the data were processed

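RNA was sequenced from 3 WT and 3 cKO libraries of stimulated primary osteocytes. The authors trimmed paired-end reads, aligned them to mm39 (GRCm39) with HISAT2 2.0.5 and deposited raw counts per gene from featureCounts, with gene lengths and coordinates. The submitters' notes give featureCounts 1.55.0-p3, the methods another release. Counts were not normalized before deposit. Genotypes were compared on these counts by the quasi-likelihood test of edgeR (version 4.0.16, R 4.3.3; filterByExpr, TMM, glmQLFit and glmQLFTest with genotype alone; the filter needs about 10 counts in 3 libraries), and p-values were adjusted after Benjamini and Hochberg over all tested genes. CPM are counts over the TMM-scaled library size times 1000000. Small counts were mostly even (63.4% to 65.7% of counts from 1 to 10), so 1 read pair may count as 2.

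The 10 genes and the lists were chosen with earlier results of these data known. Named genes were the 10, genes of the wider list past the adjusted p of 0.05 and 2-fold, the most abundant of each role in WT, up to 3 abundant markers per list, and 3 most similar profiles for Nlrp3, Casp1 and Gsdmd; other genes were named where a count was explained. Alternatives were RLE scaling, library size alone, other filters, DESeq2 1.42.0, limma-voom (limma 3.58.1), a replicate block and each library left out. The procedure was tested on simulated data. Replicate numbers did not pair the samples.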

Additional observations from a re-analysis of the deposited data

How the results depend on the processing

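Gsdmd, Casp1, Nlrp3, Aim2, Nlrc4, Pycard and Ninj1 passed the test under all 14 alternatives, and Casp4 and Nek7 under 0 of 14. The cause of the differences below was not tested. Gsdme passed under 2 of 14, library size alone (0.28) and without cKO replicate 1 (0.33), with adjusted p from 0.0440 to 0.238 over the alternatives. Nek7, which did not pass, changed sign without WT replicate 3 (-0.025), cKO replicate 2 (-0.0066) or cKO replicate 3 (-0.0065), within a range of -0.025 to 0.052 when 1 library was left out. The log2 difference of Aim2 against the macrophage markers was -0.15 with the mean of log2 levels, -0.27 against Csf1r alone and -0.38 with a pseudocount of 1, and that of Nlrc4 was -0.090, -0.21 and -0.73. Of the wider list, 7 to 12 genes fell when 1 library was left out, with 7 without cKO replicate 2. With at least 10 counts required in every library, 522 of 15134 genes tested fell at least 2-fold, against 796 of 17146. Replicate numbers did not pair the samples (correlations of same-numbered libraries -0.009108, -0.001736 and -0.01093). With a replicate block, 7 of the 10 genes rose, 5 at least 2-fold, 29 genes of the wider list rose and 9 fell. Halving the counts, chosen after seeing the data, left 7 of the 10 genes higher. The few WT counts of Nlrc4 and Aim2 limit the precision of their ratios.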
